A study of Homo sapiens with 6 samples.

Results

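The interferon response was followed across 3 stable lines of HCT116, a human colon carcinoma cell line. Of the 20026 genes kept from the deposited tables, 9 genes of this response are described here. They were chosen by name, with earlier results of these data known. Of these, 7 are interferon-stimulated genes (IFIT1, IFIT2, IFIT3, IFI6, IFI35, ISG15 and SAMD9) and 2 are transcription factors of the pathway (IRF1 and IRF7). The control line is named PQ in the sample titles, the wild type line over-expressed TEAD4, and the K178R line over-expressed TEAD4 carrying the substitution K178R, a lysine replaced by an arginine. Each line had 2 RNA sequencing libraries, and the labels name no interferon, virus or other treatment for any of them. TEAD4 is a DNA-binding factor that recruits YAP1 and TAZ, the coactivators of the Hippo pathway, and the design asks what each form of it changes in the transcriptome.

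The genotype label of wild type replicate 2 reads TEAD5, while its title reads TEAD4, and it was kept in the group of its title. How the lines were made, the promoter that drives TEAD4, and whether a line is 1 clone or a pool are not stated in the labels. Levels are FPKM, which scale fragments to the length of the transcript and to the size of the library. The number of reads is unknown, but steps between low values put the depth of the other libraries at 0.914 to 1.05 of control replicate 1. TEAD4 itself was 16.6 and 17.5 FPKM in the control libraries, 86.4 and 84.4 in the wild type libraries, and 71.2 and 72.3 in the K178R libraries, so both over-expressing lines stood above the control. The K178R line was at 84.0% of wild type (log2 -0.25, limma adjusted p = 0.00131), so these lines were not compared at equal TEAD4 RNA. Of 8 epithelial markers, EPCAM was between 146 and 153 FPKM in every library, but others differed between the lines. Against the control, 3 of the 7 tested were lower with wild type TEAD4 and 1 was higher (limma, adjusted p under 0.05). Those lower were the keratin genes KRT8 (log2 -0.75), KRT18 and KRT19. Over all genes tested, 12.2% were lower and 37.6% higher in this comparison. With K178R, 4 of the 7 markers were higher than in the control, among them KRT20 (log2 0.89), and 1 was lower. Beside these, 11.7% of all genes tested were higher with K178R and 11.1% lower. VIL1, a marker of intestinal microvilli, was at most 0.0293.

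Cells sense viral nucleic acids through receptors such as RIG-I, MDA5 and TLR3, which activate interferon regulatory factors and switch on interferon genes. Secreted interferon binds its receptors and activates the kinases JAK1 and TYK2 or JAK1 and JAK2. Activated STAT proteins then enter the nucleus. The complex ISGF3, which holds STAT2 and IRF9, binds interferon-stimulated response elements, and STAT dimers bind gamma-activated sites. The genes switched on in this way block viral translation and replication, tag proteins with ISG15, and raise antigen presentation. Epithelial tumour cells can keep part of this program on without added interferon.

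Promoters of the members are shown because these elements were searched for in them, next to the start of transcription. RefSeq (GRCh38.p14) had promoters for 7 of the 9 members, 8 sequences in all since IFIT3 has 2 starts. Each spans 250 bases before to 50 after the start. They were searched on both strands for the response element (GAAA, any 2 bases, then GAAA again), for the gamma-activated site TTCNNNGAA, and for the TEAD core GGAATG, with overlaps between matches allowed. In the first 5 sequences the capitals mark the response element, which reads TTTC, any 2 bases, TTTC on the other strand. In the last 2, which have no such match, they mark the gamma-activated site.
IFIT1 (chr10:89392373-89392672, plus strand): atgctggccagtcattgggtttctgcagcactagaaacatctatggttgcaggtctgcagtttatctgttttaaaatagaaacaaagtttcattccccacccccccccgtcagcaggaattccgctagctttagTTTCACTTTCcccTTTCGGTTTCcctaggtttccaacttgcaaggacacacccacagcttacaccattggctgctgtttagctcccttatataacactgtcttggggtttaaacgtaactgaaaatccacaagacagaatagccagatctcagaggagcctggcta
IFIT3, first start (chr10:89327747-89328046, plus strand): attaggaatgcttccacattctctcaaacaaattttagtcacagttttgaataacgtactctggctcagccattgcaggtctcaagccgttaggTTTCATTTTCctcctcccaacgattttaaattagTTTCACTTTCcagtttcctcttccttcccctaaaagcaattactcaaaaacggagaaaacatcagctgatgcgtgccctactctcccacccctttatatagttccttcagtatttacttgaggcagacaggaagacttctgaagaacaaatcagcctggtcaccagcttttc
IFI6 (chr1:27672143-27672442, minus strand): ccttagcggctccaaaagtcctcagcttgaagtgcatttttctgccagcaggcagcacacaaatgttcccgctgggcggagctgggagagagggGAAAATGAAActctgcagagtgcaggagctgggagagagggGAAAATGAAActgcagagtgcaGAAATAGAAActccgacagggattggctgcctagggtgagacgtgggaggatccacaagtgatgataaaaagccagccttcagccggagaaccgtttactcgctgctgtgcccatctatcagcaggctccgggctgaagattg
ISG15 (chr1:1013247-1013546, plus strand): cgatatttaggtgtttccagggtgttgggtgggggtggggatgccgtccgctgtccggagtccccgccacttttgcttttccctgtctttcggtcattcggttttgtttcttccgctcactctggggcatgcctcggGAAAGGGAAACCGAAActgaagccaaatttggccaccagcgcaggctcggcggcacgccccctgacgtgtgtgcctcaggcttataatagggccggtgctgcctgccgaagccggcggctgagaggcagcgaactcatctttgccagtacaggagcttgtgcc
SAMD9 (chr7:93117930-93118229, minus strand): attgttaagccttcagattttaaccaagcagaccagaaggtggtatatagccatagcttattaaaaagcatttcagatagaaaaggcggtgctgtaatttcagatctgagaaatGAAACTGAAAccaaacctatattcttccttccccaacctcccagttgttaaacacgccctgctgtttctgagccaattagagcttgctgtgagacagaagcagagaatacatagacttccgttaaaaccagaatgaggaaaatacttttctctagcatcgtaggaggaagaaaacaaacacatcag
IFI35 (chr17:43006534-43006833, plus strand): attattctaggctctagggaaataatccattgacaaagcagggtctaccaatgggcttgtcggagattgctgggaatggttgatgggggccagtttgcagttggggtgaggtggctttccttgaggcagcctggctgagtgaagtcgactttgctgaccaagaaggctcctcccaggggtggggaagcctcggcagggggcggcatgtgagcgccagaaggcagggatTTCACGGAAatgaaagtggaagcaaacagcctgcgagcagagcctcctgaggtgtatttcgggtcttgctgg
IRF1 (chr5:132490724-132491023, minus strand): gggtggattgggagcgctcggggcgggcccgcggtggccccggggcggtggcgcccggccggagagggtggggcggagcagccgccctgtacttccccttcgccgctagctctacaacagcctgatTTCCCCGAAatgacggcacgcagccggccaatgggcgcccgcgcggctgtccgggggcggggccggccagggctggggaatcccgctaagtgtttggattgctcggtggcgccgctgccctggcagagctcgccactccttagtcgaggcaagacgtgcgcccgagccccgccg

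The response element was found at 5 of the 7 members, against 3.57% of the 35116 promoters searched. IFIT1 has 2 copies on the minus strand, at -116 to -107 and at -103 to -94 from the start. IFIT3 has 2 at each of its starts. IFI6 has 3, of which the upstream pair reads GAAAATGAAA and the one nearest the start reads GAAATAGAAA. In ISG15 the 2 copies, GAAAGGGAAA and GAAACCGAAA, overlap. SAMD9 has 1, GAAACTGAAA, at -136 to -127. The gamma-activated site was found at IFI35 (TTCACGGAA) and IRF1 (TTCCCCGAA), against 7.66% of all promoters. The TEAD core was found at IFIT1, at the first start of IFIT3 and at IFI35, against 14% of all promoters. A member was counted if any of its promoters matched, while the percentages count single promoter sequences, so the units differ. A match describes the letters in this window only.

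**Figure D1:**
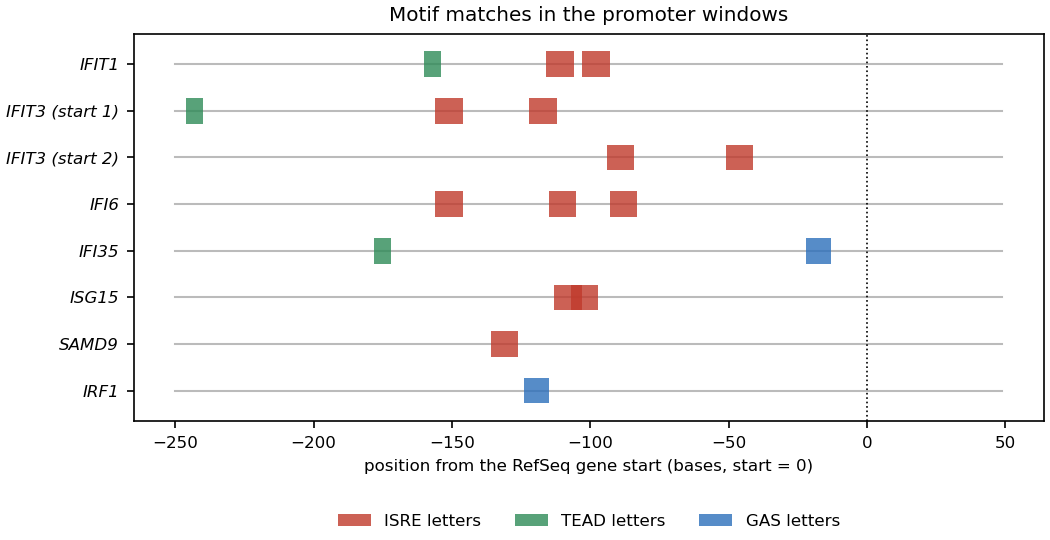
Matches to the interferon-stimulated response element, the gamma-activated site and the TEAD core in the 8 member promoters, by distance in bases from the start of transcription. Response element matches lie in the promoters of IFIT1, IFIT3, IFI6, ISG15 and SAMD9, and gamma-activated site matches in those of IFI35 and IRF1.

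In the wild type line, 7 of the 9 members rose against the control (limma, adjusted p under the threshold of 0.05), and the other two, SAMD9 and IRF7, did not pass. Over all 11445 genes tested, 49.9% passed in this comparison, 37.6% higher and 12.2% lower. The members' median log2 change was 0.38, beside 0.09 over all genes tested. With K178R against the control, none rose and 2 fell, ISG15 and SAMD9, beside 22.8% of all genes that passed, 11.7% higher and 11.1% lower, and the medians were 0.04 and 0.00. With K178R against wild type, 7 members fell and none rose, beside 44.9% of all genes that passed, 34.5% lower and 10.4% higher, and the medians were -0.41 and -0.08. At an unadjusted p under 0.05, the members numbered 7 higher and 0 lower for wild type against control, 1 higher and 3 lower for K178R against control, and 0 higher and 7 lower for K178R against wild type. The first and second comparisons share the control libraries, and both comparisons with wild type share its libraries, so the 3 counts are not independent.

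These backgrounds depend on scaling. With median-of-ratios scaling, wild type against control had 2756 of all genes higher and 2656 lower in place of 4309 and 1402, and K178R against wild type had 2402 higher and 2408 lower in place of 1187 and 3952. With upper-quartile scaling the numbers were 3185 and 2162, and 1951 and 2789. Under either scaling 5 members rose with wild type TEAD4, with ISG15 and IRF1 no longer passing, and 7 fell in K178R against wild type. IFIT2 and IFIT3 reached 0.5 FPKM, the level required for testing, only in the wild type libraries, so they had to differ to be tested. Of the 7 other members, 5 rose with wild type TEAD4 and 5 were lower with K178R than with wild type. Log2 changes are on the log2(FPKM + 1) scale, which understates the change of genes near or under 1 FPKM. In RNA from whole cultures, fewer cells expressing a gene and less RNA per cell cannot be told apart.

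**Figure D2:**
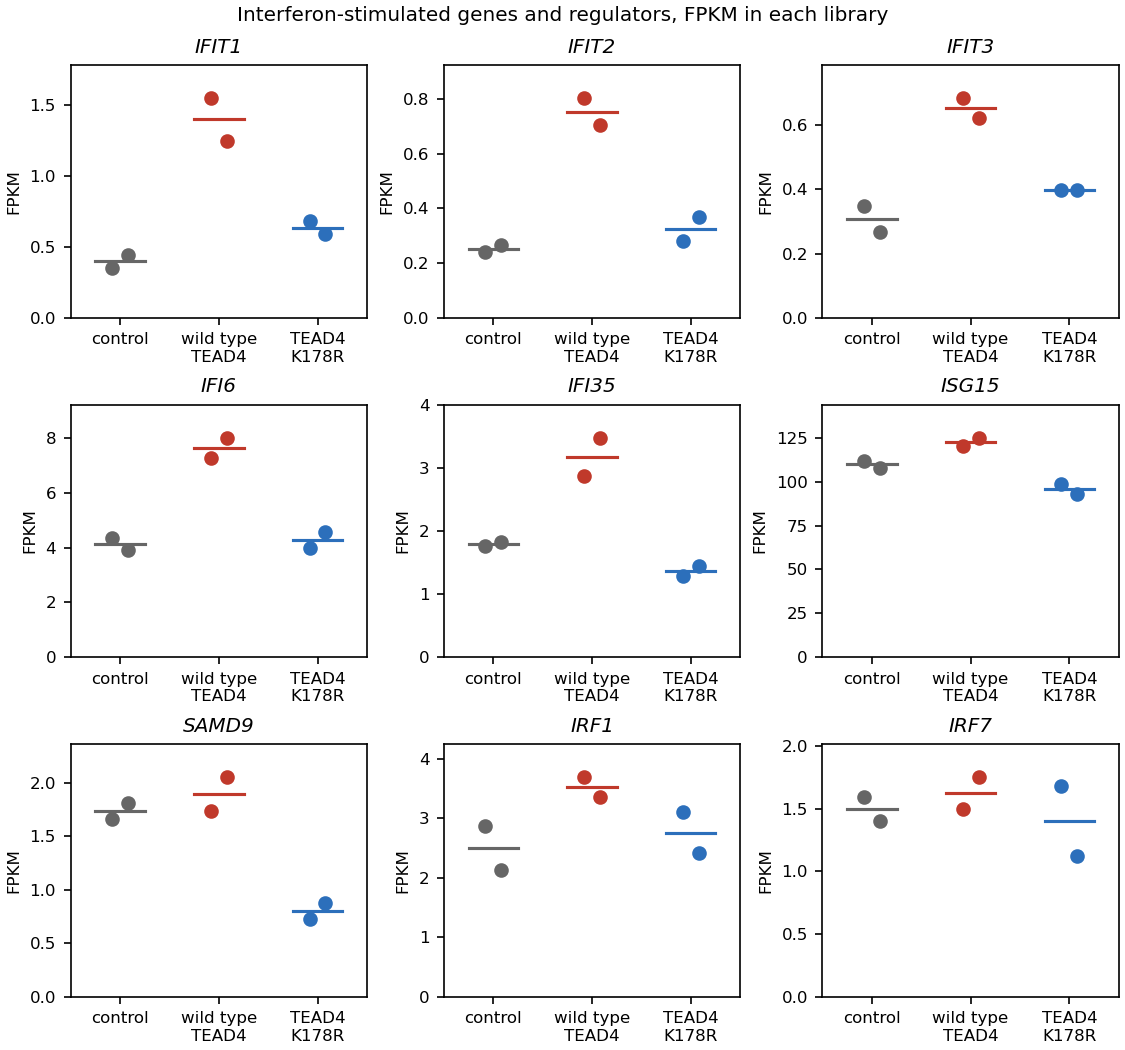
FPKM of the 9 members in each of the 6 libraries (points) with the mean of each line (bar), each panel on its own scale. The wild type libraries stand above all others for IFIT1, IFIT2, IFIT3, IFI6, IFI35, ISG15 and IRF1, and the K178R libraries stand below all others for IFI35, ISG15 and SAMD9.

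The IFIT genes encode proteins with tetratricopeptide repeats, and IFIT1 binds viral RNA whose cap lacks the methyl marks of the host. IFIT1 lies at chr10:89392546-89406486 (GRCh38, GENCODE 29) on the plus strand. It was 0.353 and 0.445 FPKM in the control libraries, 1.55 and 1.25 with wild type TEAD4, and 0.681 and 0.591 with K178R. The 3 lines did not overlap, with wild type highest and K178R between. The mean was 3.5 times the control with wild type TEAD4 (log2 0.78, SE 0.08, adjusted p = 0.00035), the highest ratio among the members. K178R was at 45.4% of wild type (log2 -0.55, SE 0.08, adjusted p = 0.00193). Against the control it stood at 0.636 ± 0.0637 FPKM (SD, n = 2) beside 0.399 ± 0.0654, a log2 difference of 0.23 (95% interval 0.03 to 0.42) that did not pass the adjusted test (adjusted p = 0.0934).

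IFIT2, which forms complexes with IFIT1 and IFIT3, lies at chr10:89283694-89309276 on the plus strand. Its values were 0.239 and 0.267 FPKM in the control, 0.803 and 0.705 with wild type TEAD4, and 0.279 and 0.368 with K178R. Only the wild type libraries passed 0.5 FPKM. The ratio to control was 2.98 with wild type TEAD4 (log2 0.49, SE 0.07, adjusted p = 0.00133), and K178R was at 42.9% of wild type (log2 -0.41, adjusted p = 0.00348). K178R and control differed by 0.08 (95% interval -0.09 to 0.24).

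IFIT3, which stabilises IFIT1, lies at chr10:89327894-89340971 on the plus strand. It read 0.349 and 0.266 FPKM in the control, 0.684 and 0.621 with wild type TEAD4, and 0.399 in both K178R libraries. Wild type again stood above the rest, at 2.12 times the control (log2 0.34, SE 0.07, adjusted p = 0.00532). K178R was at 61.1% of wild type (log2 -0.24, adjusted p = 0.0244), a call lost without any 1 of the 4 libraries compared (adjusted p = 0.0547 to 0.103). The difference from control was 0.10 (95% interval -0.06 to 0.26). With a pseudocount of 0.1 the log2 changes with wild type TEAD4 were 1.59 for IFIT1, 1.27 for IFIT2 and 0.89 for IFIT3.

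The IFIT genes lie inside the span of LIPA, a lysosomal lipase gene on the opposite strand. LIPA was 11 and 11.6 FPKM in the control, 14.0 and 13.4 with wild type TEAD4, and 11.3 and 12.2 with K178R. Its exons share no bases with those of IFIT1 and IFIT3, and 65 of the 4101 exon bases of IFIT2. A further 356 exon bases of IFIT2 are shared with AL353751.1, a gene annotated on the same strand. Of the 50-base stretches in the longest coding transcript, 8.4% for IFIT2, 2.62% for IFIT3 and 1.03% for IFIT1 also occur in other genes. Whether the counting used strand is not known, and the part of LIPA or AL353751.1 reads in these values was not tested. IFIT5, another family member, kept in the list of other antiviral genes, was far higher, at 7.37 FPKM in the control. It rose in both lines, to 9.70 (adjusted p = 0.00056) and 9.28 (adjusted p = 0.00292), and K178R and wild type differed by -0.06 (95% interval -0.16 to 0.04).

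IFI6, a membrane protein of mitochondria and the endoplasmic reticulum that limits flavivirus replication, lies at chr1:27666061-27672218 on the minus strand. The libraries read 4.35 and 3.92 FPKM in the control, 7.26 and 8.01 with wild type TEAD4, and 4.0 and 4.57 with K178R. Control and K178R overlapped, and wild type stood apart. Wild type was 1.85 times the control (log2 0.75, SE 0.08, adjusted p = 0.00028) and K178R was at 56.1% of wild type (log2 -0.71, adjusted p = 0.00049). K178R and control differed by 0.04, with a 95% interval of -0.14 to 0.22.

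IFI35, an interferon-induced leucine zipper protein that pairs with NMI, lies at chr17:43006725-43014456 on the plus strand. It was 1.77 and 1.82 FPKM in the control, 2.87 and 3.48 with wild type TEAD4, and 1.29 and 1.44 with K178R. The lines kept apart, with K178R lowest. Wild type was 1.77 times the control (log2 0.58, SE 0.08, adjusted p = 0.00109), and K178R was at 43.1% of wild type (log2 -0.81, adjusted p = 0.00038), the largest member change on the log2 scale in that comparison. The lower level of K178R against control, -0.24 (95% interval -0.43 to -0.05), did not pass (adjusted p = 0.0738), but passed when only those 2 lines were fitted (adjusted p = 0.0426) and without either wild type library (adjusted p = 0.0405 and 0.041).

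ISG15 encodes the ubiquitin-like protein that is attached to other proteins during the response, and it lies at chr1:1001138-1014540 on the plus strand. It was by far the most abundant member per transcript length, with 112 and 108 FPKM in the control, 120.2 and 125 with wild type TEAD4, and 98.5 and 93.0 with K178R. The lines did not overlap, though they were close. ISG15 rose to 1.11 times the control with wild type TEAD4 (log2 0.15, SE 0.04, adjusted p = 0.0101) and fell to 87.1% of control with K178R (log2 -0.20, SE 0.04, adjusted p = 0.00841). K178R was at 78.2% of wild type (log2 -0.35, adjusted p = 0.00043). The rise was lost with median-of-ratios scaling (log2 0.05, adjusted p = 0.315), with upper-quartile scaling (log2 0.08, adjusted p = 0.111), without control replicate 2 (adjusted p = 0.0677) and without wild type replicate 2 (adjusted p = 0.0534). The fall with K178R was lost without control replicate 1 (log2 -0.17, adjusted p = 0.0622).

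SAMD9 encodes a cytoplasmic protein that restricts poxviruses and represses translation, and it lies at chr7:93099513-93118023 on the minus strand. It was 1.66 and 1.81 FPKM in the control, 1.73 and 2.05 with wild type TEAD4, and 0.728 and 0.876 with K178R. Control and wild type overlapped, and both K178R libraries were lower than the other 4. SAMD9 fell to 46.3% of control with K178R (log2 -0.60, SE 0.08, adjusted p = 0.0021) and was at 42.4% of wild type (log2 -0.68, adjusted p = 0.00072). Wild type and control differed by 0.08 (95% interval -0.11 to 0.27). SAMD9L, the neighbouring paralog, was at most 0.0207 FPKM in any library.

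IRF1, a transcription factor that switches on antigen presentation and antiviral genes, lies at chr5:132481609-132490798 on the minus strand. Its libraries read 2.87 and 2.13 FPKM in the control, 3.69 and 3.35 with wild type TEAD4, and 3.10 and 2.42 with K178R. Wild type lay above the rest, and control and K178R overlapped. IRF1 rose to 1.41 times the control with wild type TEAD4 (log2 0.38, SE 0.12, adjusted p = 0.0343). That call was lost under 8 of the 15 alternatives, including both scalings, the control libraries averaged (adjusted p = 0.0551), and the fits without control replicate 2 (log2 0.22, adjusted p = 0.189), without wild type replicate 1 (adjusted p = 0.136) and without wild type replicate 2 (adjusted p = 0.0642). K178R and wild type differed by -0.27 (95% interval -0.55 to 0.01, adjusted p = 0.105), and K178R and control by 0.11 (95% interval -0.17 to 0.39). IRF1 shares 1716 of its 7799 annotated exon bases with C5orf56 and 469 with AC116366.3, both on the opposite strand. C5orf56 was 0.0965 and 0.187 FPKM in the control, 0.318 and 0.535 with wild type TEAD4, and 0.489 and 0.204 with K178R. Of the 50-base stretches in the longest coding transcript of IRF1, 4.7% also occur in other genes. The part of overlapping or similar genes in the IRF1 values was not tested.

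IRF7, the factor that drives much of the type I interferon production, lies at chr11:612553-615999 on the minus strand. It was 1.59 and 1.40 FPKM in the control, 1.5 and 1.75 with wild type TEAD4, and 1.68 and 1.12 with K178R. All 3 lines overlapped, and no comparison passed. The 95% intervals were -0.20 to 0.34 for wild type against control, -0.33 to 0.20 for K178R against control, and -0.41 to 0.13 for K178R against wild type. The K178R pair spread more than the others, and without its replicate 1 the difference from wild type passed (log2 -0.31, adjusted p = 0.0486).

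**Figure D3:**
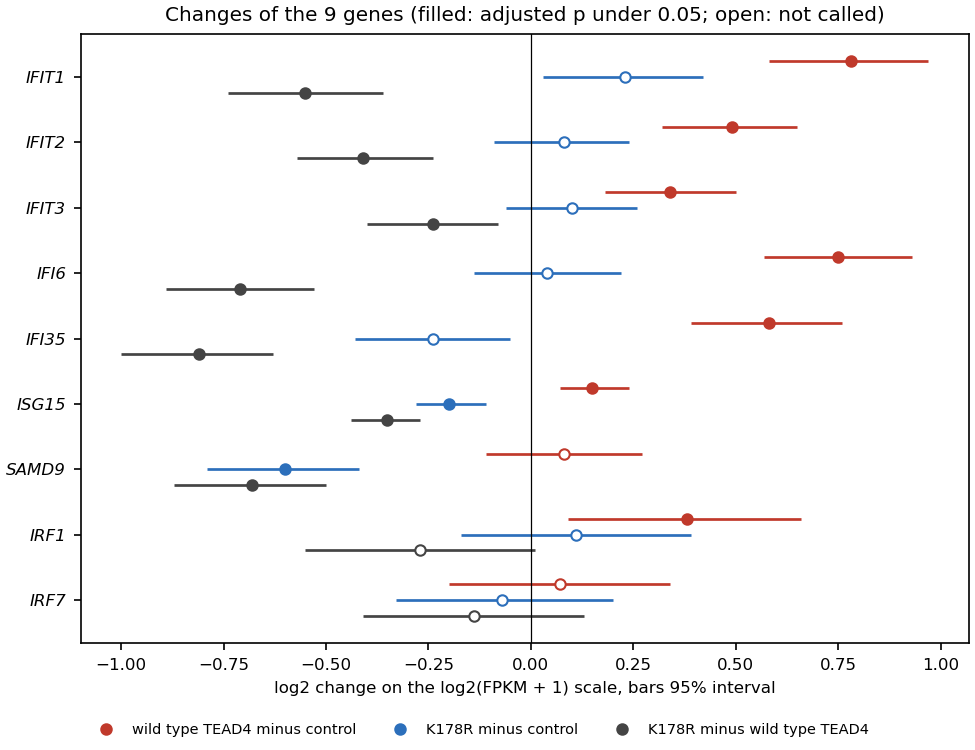
Log2 change of each member on the log2(FPKM + 1) scale with its 95% interval, in the 3 comparisons, filled where the adjusted p is under 0.05. Wild type against control is positive for all 9 members and passes for 7, and K178R against wild type is negative for all 9 and passes for 7.

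By mean level in the control line the members ran from ISG15 (109.9 ± 2.59 FPKM, SD, n = 2) through IFI6 (4.14 ± 0.309), IRF1 (2.5 ± 0.524), IFI35 (1.79 ± 0.0370), SAMD9 (1.73 ± 0.109) and IRF7 (1.5 ± 0.132) to IFIT1 (0.399 ± 0.0654), IFIT3 (0.307 ± 0.0582) and IFIT2 (0.253 ± 0.0192). Neighbours IFI35 and SAMD9 overlapped between libraries, as did IFIT3 with IFIT2. In the wild type line IFIT1 (1.40 ± 0.212) lay close to IRF7 (1.63 ± 0.174). In the K178R line SAMD9 (0.802 ± 0.105) lay near IFIT1 (0.636 ± 0.0637). Set beside the promoters, the log2 changes with wild type TEAD4 of the members with the response element were 0.78 (IFIT1), 0.75 (IFI6), 0.34 (IFIT3), 0.15 (ISG15) and 0.08 (SAMD9). Those of the members searched and found without that element were 0.58 (IFI35) and 0.38 (IRF1), so the ranges overlapped. IFIT2 (0.49) and IRF7 (0.07) had no promoter sequence to search.

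Upstream of the members, 0 of 9 interferon ligand genes reached the level needed for testing. IFNB1, IFNA2, IFNK, IFNL3 and IFNG were listed at 0 in all libraries, and IFNE, an epithelial type I interferon, read 0.114 to 0.360 FPKM. Receptors were present. IFNGR1, the ligand-binding chain for interferon gamma, was 5.43 and 5.36 FPKM in the control, 10.7 and 9.76 with wild type TEAD4, and 6.08 and 5.50 with K178R, so wild type alone was high (ratio 1.9, log2 0.81, adjusted p = 9e-05). Its partner IFNGR2 had another order, with 10.4 and 10.1 FPKM in the control, 9.97 and 10.5 with wild type TEAD4, and 6.29 and 6.01 with K178R. IFNGR2 fell to 0.60 times the control with K178R (log2 -0.65, adjusted p = 0.00011). SAMD9 also fell with K178R, to 0.463 times the control. IFNAR2, a chain of the type I receptor, rose with wild type TEAD4 (log2 0.40, adjusted p = 0.00067), and IFNAR1 (log2 0.16) and IL10RB (log2 0.20) passed as delivered but under neither scaling, nor without control replicate 1 or wild type replicate 1. IFNLR1, of the type III receptor, passed in no comparison.

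Of 6 genes of the JAK-STAT step, 4 rose with wild type TEAD4 and 4 were lower with K178R than with wild type. Over all genes tested the shares in these comparisons were 37.6% higher and 34.5% lower. Under either scaling 3 of the 6 rose and 3 were lower. For K178R against control 0 of the 6 passed in limma, beside 22.8% of all genes. At an unadjusted p under 0.05, 1 of the 6 was higher and 1 lower. STAT2 was 2.33 and 2.14 FPKM in the control, 4.16 and 3.77 with wild type TEAD4, and 2.27 and 2.49 with K178R, with wild type apart (log2 0.62, adjusted p = 0.00037). STAT3, which answers cytokines of the IL-6 family, rose from 9.25 to 15.7 FPKM (log2 0.70, adjusted p = 2.7e-05) and was 10.1 with K178R. TYK2 (log2 0.29) and JAK1 (log2 0.17) rose with wild type TEAD4, JAK1 in a call lost under both scalings (adjusted p = 0.209 and 0.0991) and without wild type replicate 2 (adjusted p = 0.0736) or either control library. JAK2 and IRF9, the DNA-binding partner in ISGF3, passed in no comparison, and IRF9 read 3.09 FPKM in the control, 2.86 with wild type TEAD4 and 2.34 with K178R.

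Of the other interferon regulatory factors and their cofactors, 6 of 8 were tested. With wild type TEAD4 2 rose, a share (33.3%) below the 37.6% of all genes that rose, namely IRF5 (log2 0.42, adjusted p = 0.00395) and IRF2BP2 (log2 0.35, adjusted p = 0.0016). With K178R 5 were lower than with wild type, beside 34.5% of all genes. They were IRF2, IRF3, IRF5, IRF2BP2 and IRF2BPL, with log2 changes from -0.19 to -0.42. Under either scaling 2 of the 6 rose with wild type TEAD4 and 4 were lower in K178R than in wild type. IRF2 reached 0.5 FPKM only in the wild type libraries, and without it 4 of 5 were lower. Against the control, IRF3 (log2 -0.20) and IRF2BPL (log2 -0.23) fell with K178R, beside 11.1% of all genes. The fall of IRF3 was lost without control replicate 1 (adjusted p = 0.137) and without either K178R library, and that of IRF2BPL without control replicate 1 (adjusted p = 0.0802) and K178R replicate 2 (adjusted p = 0.0712). The lower IRF2BP2 in K178R against wild type was lost without wild type replicate 1 (adjusted p = 0.133), without K178R replicate 1 (adjusted p = 0.128) and under both scalings. IRF2BP1 passed in no comparison.

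Among nucleic acid sensors and adaptors 10 of 15 were tested, and 8 rose with wild type TEAD4 while 8 were lower with K178R than with wild type. Beside these counts and those of ISG15 conjugation below, 37.6% of all genes tested rose and 34.5% were lower. Under either scaling 7 of the 10 sensors and adaptors rose and 6 were lower. TLR3, the endosomal sensor of double-stranded RNA, was 0.459 and 0.463 FPKM in the control, 1.43 and 1.55 with wild type TEAD4, and 0.427 and 0.244 with K178R. The ratio to control was 3.24 (log2 0.77, adjusted p = 0.00035), but TLR3 reached 0.5 FPKM only in the wild type libraries, so it had to differ to be tested. Without it 7 of 9 sensors and adaptors rose and 7 were lower. DDX58, the gene of RIG-I, rose in both lines (log2 0.62 and 0.26), with the K178R call lost without control replicate 2 (adjusted p = 0.11) or either K178R library, and IFIH1, the gene of MDA5, with wild type TEAD4 (log2 0.60), as did the kinase IKBKE (log2 0.70). TRAF3, an adaptor named after its value was seen, was the other of 2 genes called higher with K178R (log2 0.18), lost without any 1 of the control or K178R libraries. These 2 of 10 stand beside 11.7% of all genes higher with K178R than in the control. All 4 tested genes of ISG15 conjugation rose with wild type TEAD4 and were lower with K178R: the E2 enzyme UBE2L6 (log2 0.49 and -0.51), the ligases HERC5 (0.53 and -0.33) and HERC6 (0.50 and -0.33), and the deconjugating protease USP18 (0.47 and -0.39). UBA7, the E1 enzyme, was at most 0.134 FPKM. The call of HERC5 in K178R against wild type was lost without wild type replicate 1 (adjusted p = 0.0636) and without K178R replicate 2 (adjusted p = 0.0731).

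Of 6 negative regulators, 3 rose with wild type TEAD4 and 3 were lower with K178R than with wild type, beside 37.6% and 34.5% of all genes, so these counts say little about the list. SOCS1, which blocks JAK kinases, went from 1.08 FPKM to 2.62 (log2 0.80, adjusted p = 0.00029) and 1.63 (log2 0.34, adjusted p = 0.0228). PTPN6, a phosphatase, rose with wild type TEAD4 (log2 0.29) and fell with K178R (log2 -0.35, adjusted p = 0.0143). The K178R calls of SOCS1 and PTPN6 were lost without control replicate 1 (adjusted p = 0.0977 and 0.0576) and without either K178R library, and the PTPN6 rise without control replicate 2 (adjusted p = 0.0629) and without wild type replicate 1 (adjusted p = 0.0717). With median-of-ratios scaling this list had 1 member higher and 1 lower with wild type TEAD4, and its median changed sign in both comparisons with wild type (from 0.09 to -0.01 and from -0.04 to 0.05).

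The 50 other antiviral genes divided by level. Only 29 were tested, and MX1, OAS1, OAS2, RSAD2, IFI44 and IFI44L, textbook responders to interferon, were each at most 0.109 FPKM in any library. MX2 and XAF1 were listed at 0 throughout. With wild type TEAD4 20 rose and 3 fell, with K178R 3 rose and 6 fell, and against wild type K178R had 1 higher and 18 lower. Over all genes the shares were 37.6% higher and 12.2% lower, 11.7% and 11.1%, and 10.4% and 34.5%, so the 3 of 29 higher with K178R (10.3%) are near the background. TRIM22 and IFITM1 would not have been tested without the wild type libraries, and leaving both out 19 of 27 rose with wild type TEAD4 and 17 were lower with K178R than with wild type. C19orf66, an inhibitor of viral frameshifting, and PARP12 rose with wild type TEAD4 (log2 0.66 and 0.63) and were lower with K178R (log2 -0.89 and -0.79). OAS3 rose with wild type TEAD4 (log2 0.39) and fell with K178R (log2 -0.22, adjusted p = 0.0147), a fall lost without either control library (adjusted p = 0.0578 and 0.0799) or K178R replicate 1. PARP14 rose in both lines beside IFIT5 and PARP9, the 3 genes called higher with K178R, with 3.11 and 3.06 FPKM in the control, 4.94 and 4.89 with wild type TEAD4, and 5.39 and 5.32 with K178R. The PARP9 call with K178R was lost without control replicate 2 (adjusted p = 0.0558) and without K178R replicate 1 (adjusted p = 0.0522). The 3 genes lower with wild type TEAD4, named after their values were seen, were IFITM2 (log2 -0.12), IFITM3 (log2 -0.30) and ZC3HAV1 (log2 -0.16). The call of ZC3HAV1 was lost without either control library (adjusted p = 0.0894 and 0.103) and without wild type replicate 1, and that of IFITM2 without control replicate 1 (adjusted p = 0.0753). IFITM3 was also the 1 gene higher in K178R than in wild type (log2 0.08), a call lost without any 1 of those 4 libraries. IFITM2 and IFITM3 are near-identical copies, so reads may be split between them.

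All 11 tested antigen presentation genes rose with wild type TEAD4, 3 rose with K178R, and 10 were lower with K178R than with wild type. PSMB9, a subunit of the immunoproteasome, went from 0.938 and 0.45 FPKM in the control to 4.20 and 4.75 with wild type TEAD4, and was 0.767 and 1.17 with K178R. The 3 genes higher with K178R were NLRC5 (log2 0.80), HLA-B (log2 0.27) and TAP2 (log2 0.18), the last lost under 11 of 15 alternatives. Over all lists outside the members, 78 of 117 genes were tested. With wild type TEAD4 56 rose and 3 fell (median log2 0.30), with K178R 9 rose and 10 fell (median 0.01), and K178R against wild type had 1 higher and 57 lower (median -0.32). As shares, 71.8% rose with wild type TEAD4 beside 37.6% of all genes, and 73.1% were lower in K178R than in wild type beside 34.5%. With K178R against control the shares, 11.5% higher and 12.8% lower, were near those of all genes, 11.7% and 11.1%. Without the 4 genes that entered the test through the wild type libraries, 54 of 74 rose and 54 were lower. With median-of-ratios scaling these were 43 and 5, 8 and 11, and 3 and 47. Of the calls in the 3 comparisons, 42 of 59, 8 of 19 and 44 of 58 held under every alternative that could test them. Some of these genes were picked with earlier results of these libraries known, so the lists are not independent evidence of a direction.

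**Figure D4:**
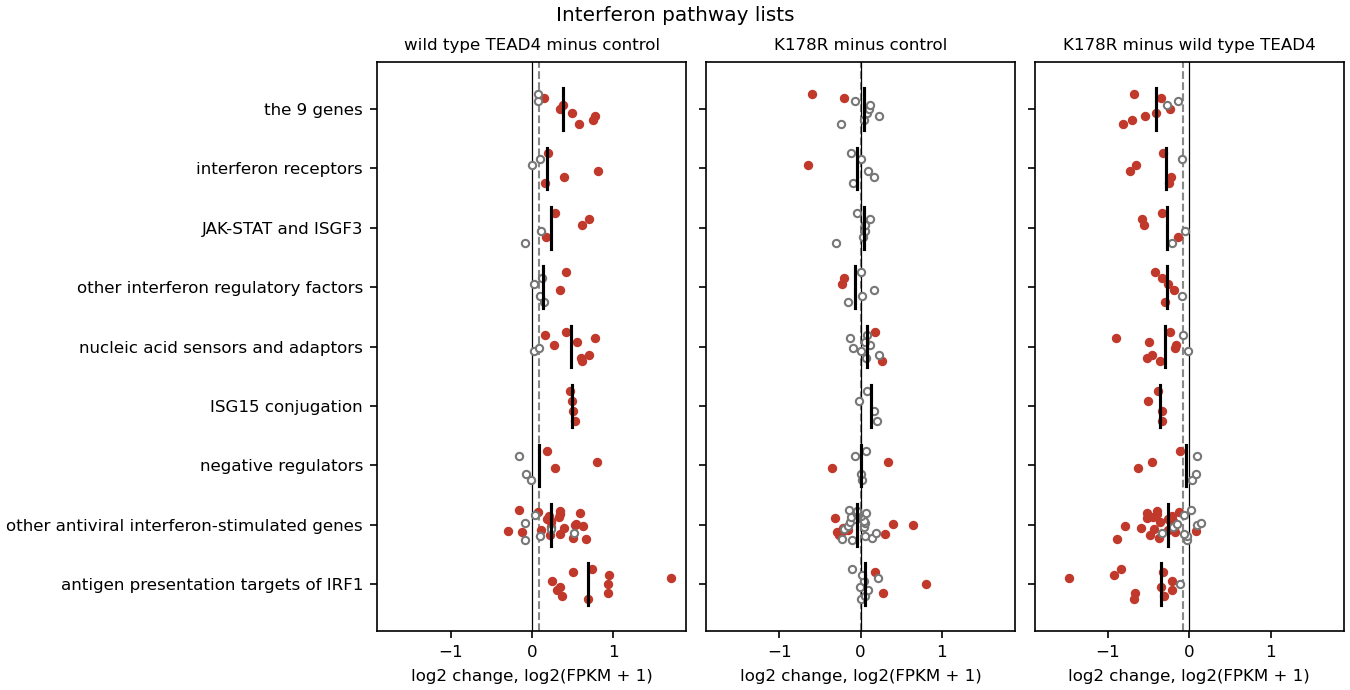
Log2 changes of the tested genes of each interferon pathway list in the 3 comparisons (points, filled where the adjusted p is under 0.05) with the list's median (bar), beside the members, and the median of all tested genes as a dashed line. With wild type TEAD4 the medians of the lists lie above 0, and in K178R against wild type they lie below 0, with both directions of the negative regulators lost under median-of-ratios scaling.

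**Figure D5:**
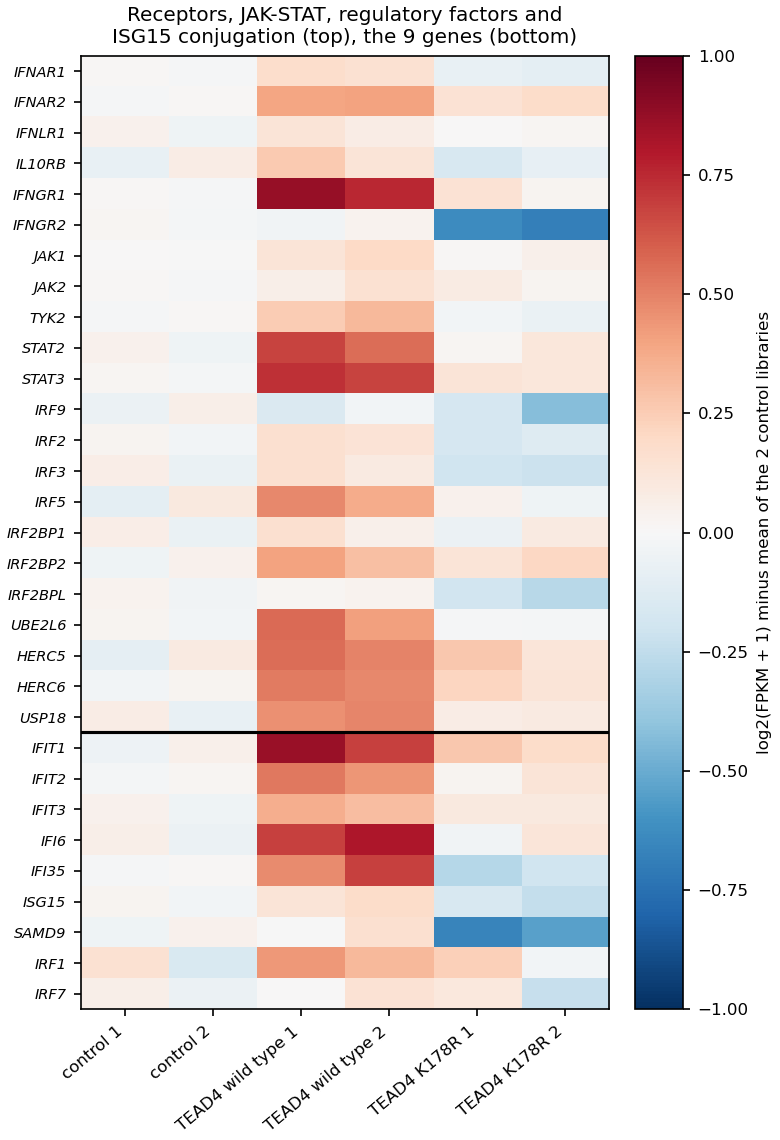
Log2(FPKM + 1) of members and pathway genes in each library, minus the mean of the 2 control libraries, as colour, for receptors, JAK-STAT genes, regulatory factors, ISG15 conjugation and the members. The wild type columns are above the control for most genes, and IFNGR2 and SAMD9 are low in the K178R columns.

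Markers of other cells were read beside these values. Of 14 leukocyte markers 7 were listed at 0 in every library, and PTPRC, the gene of CD45, was at most 0.00622 FPKM. The summed leukocyte level was 3.77 and 4.31 FPKM in the control, 5.2 and 5.53 with wild type TEAD4, and 2.30 and 2.74 with K178R, carried by CD68 and by HLA-DRA. HLA-DRA, an antigen presentation gene inducible by interferon gamma, was 0.528 and 0.611, 2.26 and 2.31, and 0.949 and 1.42 FPKM in the same order. The epithelial sum was 2682 and 2636 FPKM in the control, 1851 and 1797 with wild type TEAD4, and 2854 and 2887 with K178R, a pattern carried by the keratin genes KRT8 and KRT18. The fibroblast sum of 7 markers was 1.53 to 1.76 FPKM in the control, 3.64 to 3.78 with wild type TEAD4 and 1.73 to 1.89 with K178R, and 3 of the markers were listed at 0. COL1A1 carried it, with 1.73 and 1.5 FPKM in the control and 3.52 and 3.73 with wild type TEAD4, and no other marker passed 0.0730. Their part in the members' changes was not tested.

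The members' mean centred profile was -0.09 and -0.14 in the control libraries, 0.27 and 0.30 with wild type TEAD4, and -0.16 and -0.19 with K178R. Among 1135 tested genes outside the lists whose line means span at least 0.5 on the log2 scale, the 5 most like it over the 6 libraries were DRAM1 (Pearson r 0.9993), CYFIP2 (0.9992), TNFAIP8L1 (0.9990), HSPA4L (0.9973) and CALCOCO1 (0.9966). DRAM1 read 5.96 and 5.47 FPKM in the control, 12.3 and 12.8 with wild type TEAD4, and 5.44 and 4.99 with K178R. These are descriptions over 6 libraries in 3 lines, which share depth and line.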

How the data were processed

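Per the labels' protocols, TruSeq RNA libraries were prepared from Trizol-extracted RNA. The authors deposited 1 table of FPKM values per library, 20030 gene rows. Bowtie 0.12.2 and hg18 are named in the submitters' processing notes. Which program and annotation gave the FPKM, and whether strand was used, is not given in the sources used here. In all, 4 rows with repeated identifiers were left out. Positions come from GENCODE 29 on GRCh38 and promoters from RefSeq, not from the files.

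A gene was tested if 2 or more libraries had 0.5 FPKM or more, which left 11445, on log2(FPKM + 1) with limma 3.58.1 in R 4.3.3, with trend, 3 group means and 6 libraries (3 residual degrees of freedom). Tests were two-sided, with Benjamini-Hochberg adjustment over all genes tested. The script was tested on simulated data. Libraries totalled 283195 to 305329 FPKM. The members, lists and alternatives were chosen with earlier results of these data known. Named genes are all members, all tested receptors, JAK-STAT genes and interferon regulatory factors, up to 4 genes per other list by size of change among those passing, and the 5 genes most like the members' profile. Some pathway genes are not reported here and are left out of the lists and their counts. Other genes named were chosen after their values were seen. The labels do not say whether a line's libraries were separate cultures, so p-values reflect how these libraries vary, which may be technical. The control libraries were also averaged as 1 sample.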

Additional observations from a re-analysis of the deposited data

How the results depend on the processing

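The 3 comparisons were recomputed under 15 alternatives. With at least 1 FPKM in all 6 libraries 5 members were tested, of which 4 rose with wild type TEAD4, 1 fell with K178R and 3 fell in K178R against wild type, since fewer genes were tested. Leaving out each library in turn gave 5 to 7 members higher with wild type TEAD4, 1 to 3 lower with K178R (1 without control replicate 1) and 6 to 7 lower in K178R against wild type. Of 393 single-gene values, 364 kept their direction and side of the threshold. Values that changed sign, none past the threshold as delivered, did so only without 1 library: IFI6 (-0.04 to 0.12), IRF1 (-0.05 to 0.26) and IRF7 (-0.24 to 0.11) for K178R against control, SAMD9 (-0.0009 to 0.16) for wild type against control, and IRF7 (-0.31 to 0.03) for K178R against wild type. The cause was not tested.

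With the replicate number as a block, 7 members rose with wild type TEAD4, 2 fell with K178R and 8 fell in K178R against wild type, where IRF1 passed (log2 -0.27, adjusted p = 0.0205). Over all genes tested, libraries with the same number did not deviate together (r = 0.0154, -0.0311 and 0.0323). The labels do not say whether such libraries were handled together, and these correlations cannot settle it. Over all genes, K178R against control had 1342 higher and 1268 lower, against 658 and 577 with the controls averaged, and 732 to 1266 and 635 to 1229 without 1 library. The other pathway genes in that comparison numbered 4 to 8 higher and 4 to 10 lower without 1 library. The number of reads is unknown, so the precision of members under 1 FPKM cannot be given.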
